A study of Mus musculus with 22 samples.

Results

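The 10 genes described here, Dcn, Lum, Ogn, Col1a1, Col1a2, Col3a1, Slc6a13, Slc13a4, Igf2 and Aldh1a2, are genes known from the meninges and from fibroblasts. They were taken by symbol from a table of read counts with 55385 gene identifiers, and all 10 were found and passed the filter on low counts in every fit. The table came from RNA-Seq of 11 adult male mice, 5 wt and 6 Ts66Yah, from whose brains the entorhinal cortex (EC) and hippocampus (HIP) had been isolated and frozen, so that each animal gave both regions and the 22 libraries fall into 4 groups. Ts66Yah mice carry a freely segregating minichromosome with an additional copy of the distal segment of Mmu16 that is homologous to human chromosome 21, from which the centromeric part of Mmu17 present in the older Ts65Dn model was removed by CRISPR. The line descends from 1 mosaic founder, so that every Ts66Yah animal carries the same rearrangement, and the wt animals were littermates on the same mixed B6C3B background. The comparison asks whether these genes differ with the minichromosome in either region, and whether the regions differ in this respect.

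The leptomeninges, the thin membranes on the brain surface, consist largely of fibroblasts that lay down collagens and proteoglycans, and related fibroblasts accompany the larger vessels into the tissue. Meningeal fibroblasts also carry transporters for neurotransmitters and anions, release growth factors and make retinoic acid. Neurons and glia express most of these genes at low levels or not at all, and the choroid plexus, which borders the hippocampus in the ventricle, shares Slc13a4 and Igf2 with the meninges.

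The libraries held between 25.9 M and 50.1 M counted reads, with a median of 34.7 M, and counts of the 10 genes ran from 12 to 3327 reads per library. Igf2 was the thinnest of them, with 12 to 113 reads, and Dcn the deepest, with 432 to 3327 reads. The labelled regions were checked against markers. All 8 hippocampal markers were lower in EC than in HIP in wt, and 6 of 8 cortical markers were higher, by edgeR's quasi-likelihood test at an adjusted p under 0.05. The other 2 cortical markers had negative estimates. In a fit with the animal as a block 1 cortical marker was called lower in EC. Of all genes tested 47.7% were called between the regions of wt. A second list of leptomeningeal and fibroblast genes was chosen, with earlier results known. Its summed level ran from 242 to 285 CPM (read counts scaled to the size of the library) in wt HIP. In wt EC that sum ran from 326 to 447 CPM. These sums give a level only and do not check the fibroblast label of the 10 genes. None of the 10 genes lies on Mmu16 or Mmu17, so none has an additional copy in Ts66Yah. Dcn (chr10:97479609-97518143) and Lum (chr10:97565128-97572703) lie close to each other in GRCm38. Ogn lies at chr13:49608046-49624501, Col1a1 at chr11:94936224-94953042, Col1a2 at chr6:4504814-4541544 and Col3a1 at chr1:45311538-45349706. Slc6a13 lies at chr6:121300227-121337733, Slc13a4 at chr6:35267957-35308131, Igf2 at chr7:142650766-142666816 and Aldh1a2 at chr9:71215789-71296243. All 10 are annotated as protein coding.

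Per unit of exon length, Dcn had the highest mean of the 10 in each group. The mean was 4.21 ± 1.68 reads per kilobase of exon at equal depth (RPKM, SD, n = 5) in wt HIP. In wt EC the mean of Dcn was 5.45 ± 1.21 RPKM (n = 5). Its libraries overlapped those of the next gene in each group, and in wt EC replicates 2, 3 and 4 Ogn stood above Dcn. In wt HIP the order of RPKM levels went on with Ogn, Lum, Slc13a4, Aldh1a2 and Slc6a13, where each gene's libraries overlapped those of the next, and a gap without overlap followed before Col1a2 at 0.832 ± 0.203 RPKM (n = 5). Col3a1 was the lowest gene in wt HIP at 0.202 ± 0.0299 RPKM, overlapping Igf2 at 0.257 ± 0.154 RPKM (n = 5 each). In wt EC, Ogn, Slc6a13, Aldh1a2 and Slc13a4 stood at 5.07 to 3.96 RPKM, each overlapping its neighbour, and Lum followed without overlap at 1.85 ± 0.22 RPKM (n = 5). Slc6a13 and Aldh1a2 thus ranked above Lum in wt EC and below it in wt HIP, on the RPKM scale.

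Between the regions of wt animals, 7 of the 10 genes differed, 6 of them higher in EC and Lum lower. The background was high: 47.7% of the 17935 genes tested were called in this comparison (edgeR, adjusted p under 0.05). The median log2 fold change of the 10 genes, EC minus HIP, was 0.66 against 0.01 over all genes tested. The largest differences were those of Slc6a13, Aldh1a2, Col3a1 and Col1a2, whose EC libraries all lay above their HIP libraries, an ordering seen in 16.8% of all genes tested. Because these are bulk samples, more fibroblasts in the sample and more RNA per fibroblast cannot be told apart, here and below. How much membrane stayed on each dissected sample was not recorded in the labels.

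The start-site regions of these 4 genes are printed to show what lies upstream of a RefSeq start of the genes with the smallest adjusted p between regions in wt. Each line gives the 250 bases before the RefSeq start of transcription, 5′ to 3′ on the gene's strand, from RefSeq (GRCm38.p6). Capitals mark 3 short motifs searched on both strands, which do not overlap one another in these windows. The first is the box with the letters CCAAT, the second the box TATAAA and the third the GC box, which reads GGGCGG. The windows are chr6:4505368-4505617 for Col1a2, chr1:45311288-45311537 for Col3a1, chr6:121300038-121300287 for the first of 3 annotated starts of Slc6a13 and chr9:71215539-71215788 for Aldh1a2, all on the + strand. The RefSeq starts of Col1a2 and Slc6a13 lie downstream of the gene starts given above from GENCODE, so that the Col1a2 window is wholly, and the Slc6a13 window partly, inside the GENCODE gene.
Col1a2: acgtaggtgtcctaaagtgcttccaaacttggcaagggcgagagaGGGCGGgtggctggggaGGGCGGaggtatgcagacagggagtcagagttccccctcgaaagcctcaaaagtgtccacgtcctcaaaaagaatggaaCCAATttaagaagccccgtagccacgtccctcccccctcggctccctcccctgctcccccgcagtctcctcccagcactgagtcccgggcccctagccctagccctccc
Col3a1: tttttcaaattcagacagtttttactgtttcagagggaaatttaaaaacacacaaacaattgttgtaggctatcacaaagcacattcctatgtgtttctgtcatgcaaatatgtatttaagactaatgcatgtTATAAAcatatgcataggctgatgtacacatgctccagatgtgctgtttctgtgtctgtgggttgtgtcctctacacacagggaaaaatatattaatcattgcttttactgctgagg
Slc6a13: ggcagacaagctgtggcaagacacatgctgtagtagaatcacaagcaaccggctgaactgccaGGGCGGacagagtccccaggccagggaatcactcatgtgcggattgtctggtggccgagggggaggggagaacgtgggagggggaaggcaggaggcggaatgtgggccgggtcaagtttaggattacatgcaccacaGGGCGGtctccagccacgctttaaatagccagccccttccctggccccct
Aldh1a2: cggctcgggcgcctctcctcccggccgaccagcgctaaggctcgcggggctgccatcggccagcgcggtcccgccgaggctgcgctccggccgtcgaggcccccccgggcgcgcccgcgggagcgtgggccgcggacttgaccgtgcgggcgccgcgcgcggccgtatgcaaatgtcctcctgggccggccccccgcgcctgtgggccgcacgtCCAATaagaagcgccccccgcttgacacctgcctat
Col1a2 held 2 GGGCGG, with first bases 205 and 188 bases before the start, and 1 CCAAT 109 bases before it. Slc6a13 held 2 GGGCGG, 187 and 50 bases before its start. Aldh1a2 held 1 CCAAT, 36 bases before its start, and Col3a1 held 1 TATAAA, 117 bases before its start. No motif was common to all 4. Of all 32851 RefSeq windows of the same length, 33.8% held CCAAT, 32.7% GGGCGG and 12.4% TATAAA. These matches are letters only and no binding was measured.

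Dcn, Lum and Ogn encode small leucine-rich proteoglycans, which bind collagen fibrils in the extracellular matrix. Dcn (decorin) measured 23.9, 29.8, 14.6, 16.3 and 38.3 CPM in wt HIP replicates 1 to 5, and 31.8, 22.8, 27.3, 37.1 and 40.2 CPM in wt EC. Ts66Yah libraries ranged from 20.8 through a median of 28.3 to 79.7 CPM in HIP, and from 25.7 through 37.5 to 58.6 CPM in EC. The groups overlapped in both regions, and the highest HIP value, Ts66Yah replicate 4, stood above all other HIP libraries. The log2 fold change of Dcn, Ts66Yah minus wt, was 0.55 ± 0.34 (SE) in HIP and 0.33 ± 0.22 in EC, neither called (edgeR adjusted p 0.565 and 0.911). Dcn was the only gene of the 10 with a positive estimate in both regions, and its EC minus HIP difference was called in neither genotype.

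Lum (lumican) was the exception between the regions. It measured 6.83, 11.0, 7.32, 5.14 and 9.15 CPM in wt HIP replicates 1 to 5, and 4.07, 4.16, 4.36, 4.67 and 5.40 CPM in wt EC. The Ts66Yah levels ran from 5.20 through 7.93 to 13.5 CPM in HIP, and from 2.39 through 3.38 to 5.78 CPM in EC. All 5 wt and all 6 Ts66Yah animals had less Lum in EC than in HIP, although the groups overlapped. Lum fell by 0.80 ± 0.18 on the log2 scale from HIP to EC in wt (edgeR adjusted p 0.00257) and by 1.24 ± 0.27 in Ts66Yah (adjusted p 0.00144), and these were calls under each alternative tried. Its genotype difference was 0.09 ± 0.26 in HIP and -0.34 ± 0.21 in EC (log2, edgeR adjusted p 0.928 and 0.89).

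Ogn (osteoglycin) measured 5.69, 12.1, 8.33, 9.25 and 8.42 CPM in wt HIP and 8.42, 11.0, 14.2, 17.8 and 13.6 CPM in wt EC, replicates 1 to 5. In Ts66Yah HIP it ranged from 6.77 through 9.17 to 14.6 CPM, close to wt, whereas Ts66Yah EC ran from 2.49 through 6.31 to 24.2 CPM. Of the 6 Ts66Yah EC libraries, 4 lay below and 2 above all wt EC libraries. In wt, Ogn rose by 0.57 ± 0.21 (log2) from HIP to EC (edgeR adjusted p 0.0386), a call lost without wt animal 3, 4 or 5, where the adjusted p was between 0.108 and 0.132. Those fits did not pair the regions of an animal. With the animal as a block and all wt animals kept, the rise was 0.58 ± 0.14 (edgeR adjusted p 0.00563). The genotype differences were 0.17 ± 0.21 in HIP and -0.31 ± 0.46 in EC and were not called. Ogn lies within the gene Cenpp on the opposite strand, without shared exons, and Cenpp counted 7 to 44 reads.

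Col1a1 and Col1a2 encode both chains of type I collagen and Col3a1 the chain of type III collagen, the fibrillar collagens of fibroblasts. Col1a1 measured 4.58, 4.70, 4.79, 3.63 and 6.13 CPM in wt HIP and 6.47, 4.49, 8.63, 9.87 and 9.69 CPM in wt EC, replicates 1 to 5. In Ts66Yah it ranged from 3.74 through 4.97 to 7.73 CPM in HIP, and from 2.42 through 3.20 to 12.3 CPM in EC. As for Ogn, 4 of the 6 Ts66Yah EC libraries lay below and 2 above all wt EC libraries. Col1a1 rose by 0.72 ± 0.21 (log2) from HIP to EC in wt (edgeR adjusted p 0.0117), which was lost without wt animal 3 or 4 (adjusted p 0.0518 and 0.0653). With the animal as a block and all wt animals kept, the rise was 0.69 ± 0.17 (edgeR adjusted p 0.00681). Its genotype difference was 0.17 ± 0.21 in HIP and -0.43 ± 0.43 in EC (log2), with edgeR adjusted p of 0.813 and 0.967.

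Col1a2 measured 11.2, 12.8, 10.2, 6.16 and 11.3 CPM in wt HIP and 18.5, 14.6, 23.1, 29.3 and 24.8 CPM in wt EC, replicates 1 to 5. Ts66Yah libraries ranged from 6.18 through 10.9 to 17.9 CPM in HIP, and from 7.41 through 10.7 to 33.9 CPM in EC. The wt regions were fully separated, 2.13-fold higher in EC (log2 1.09 ± 0.20, edgeR adjusted p 0.000672), while the Ts66Yah regions overlapped (log2 0.58 ± 0.39, adjusted p 0.227). Col3a1 measured 2.14, 2.22, 1.82, 1.55 and 2.21 CPM in wt HIP and 3.71, 3.71, 4.65, 5.87 and 4.41 CPM in wt EC. The Ts66Yah levels ran from 1.33 through 2.48 to 5.91 CPM in HIP, and from 1.21 through 2.59 to 6.17 CPM in EC. It was 2.25-fold higher in EC than in HIP in wt (log2 1.17 ± 0.16, edgeR adjusted p 6.31e-05), against a log2 difference of 0.21 ± 0.41 in Ts66Yah that was not called. The genotype difference of Col1a2 was 0.08 ± 0.24 in HIP and -0.42 ± 0.39 in EC. That of Col3a1 was 0.52 ± 0.30 in HIP and -0.44 ± 0.36 in EC, on the log2 scale, and none of the 4 was called.

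Slc6a13 encodes the plasma membrane transporter GAT2 for GABA and taurine, found in the leptomeninges and at the vessels. It measured 4.21, 5.38, 5.37, 3.78 and 5.01 CPM in wt HIP and 8.91, 12.5, 17.6, 17.7 and 14.8 CPM in wt EC, replicates 1 to 5. In Ts66Yah it ranged from 4.28 through 5.49 to 9.67 CPM in HIP, and from 5.15 through 7.58 to 20.2 CPM in EC. The wt regions were apart by a wide margin, and the fold of 3.0 (log2 1.59 ± 0.18, edgeR adjusted p 1.37e-05) was the largest of the 10 genes between the regions of wt. In Ts66Yah it was higher in EC in 6 of 6 animals, an outcome shared by 25.9% of all genes tested, with a log2 difference of 0.81 ± 0.36 (adjusted p 0.0739). With the animal as a block that difference was 0.66 ± 0.16 and passed the threshold (edgeR adjusted p 0.00462). The genotype difference of Slc6a13 was 0.37 ± 0.20 in HIP and -0.40 ± 0.37 in EC (log2, edgeR adjusted p 0.499 and 0.96).

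Slc13a4 encodes a sodium-coupled sulfate transporter of the meninges and the choroid plexus. It measured 9.45, 20.5, 10.6, 3.78 and 14.4 CPM in wt HIP and 11.5, 16.2, 20.3, 23.1 and 18.4 CPM in wt EC, replicates 1 to 5. Ts66Yah libraries ranged from 6.37 through 12.6 to 16.4 CPM in HIP, and from 3.22 through 8.68 to 31.1 CPM in EC. The spread in wt HIP was 5.43-fold from the lowest to the highest library, the groups overlapped in both regions, and no comparison of Slc13a4 was called with all libraries. Its genotype difference was 0.04 ± 0.32 in HIP and -0.32 ± 0.50 in EC, and its EC minus HIP difference was 0.60 ± 0.33 in wt and 0.23 ± 0.47 in Ts66Yah (log2). Without wt animal 2 the difference in wt was called (log2 0.94, edgeR adjusted p 0.0393).

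Igf2 encodes insulin-like growth factor 2, in the adult brain known from the choroid plexus and the meninges. It measured 0.827, 2.31, 1.33, 0.453 and 2.43 CPM in wt HIP and 0.638, 0.905, 2.20, 1.11 and 1.64 CPM in wt EC, replicates 1 to 5. The Ts66Yah levels ran from 0.496 through 1.42 to 2.97 CPM in HIP, and from 0.439 through 0.672 to 2.38 CPM in EC. The groups overlapped throughout and no comparison was called. The genotype difference was 0.06 ± 0.44 in HIP and -0.28 ± 0.46 in EC (log2), so that its 95% intervals reached from -0.88 to 0.99 and from -1.27 to 0.72. Exons of Igf2 overlap those of the antisense gene Igf2os, which counted 0 to 24 reads, and of Gm49394 on the same strand, which counted 0. Whether the counting used strand is not stated in the sources used here, so reads of Igf2 and Igf2os may not be separable.

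Aldh1a2 encodes a retinaldehyde dehydrogenase that makes retinoic acid. It measured 3.27, 3.89, 4.45, 3.36 and 4.62 CPM in wt HIP and 7.20, 6.69, 12.9, 14.2 and 11.6 CPM in wt EC, replicates 1 to 5. In Ts66Yah it ranged from 4.37 through 5.53 to 9.65 CPM in HIP, and from 4.10 through 6.71 to 20.2 CPM in EC. In HIP, 5 of the 6 Ts66Yah libraries lay above all wt libraries and the lowest lay among them. The difference in HIP, 0.69 ± 0.19 on the log2 scale or 1.61-fold, was the largest genotype estimate of the 10 genes and did not pass the threshold (edgeR p 0.00317, adjusted p 0.164). DESeq2 called it (adjusted p 0.0281), and over all 18 alternatives the adjusted p ran from 0.0281 to 0.624 while the estimate stayed positive. In EC the genotype difference was -0.07 ± 0.41 (adjusted p 0.995). Between the regions, Aldh1a2 was 2.68-fold higher in EC than in HIP in wt (log2 1.42 ± 0.21, edgeR adjusted p 0.000114), and the difference in Ts66Yah was 0.66 ± 0.39 (adjusted p 0.17).

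**Figure D1:**
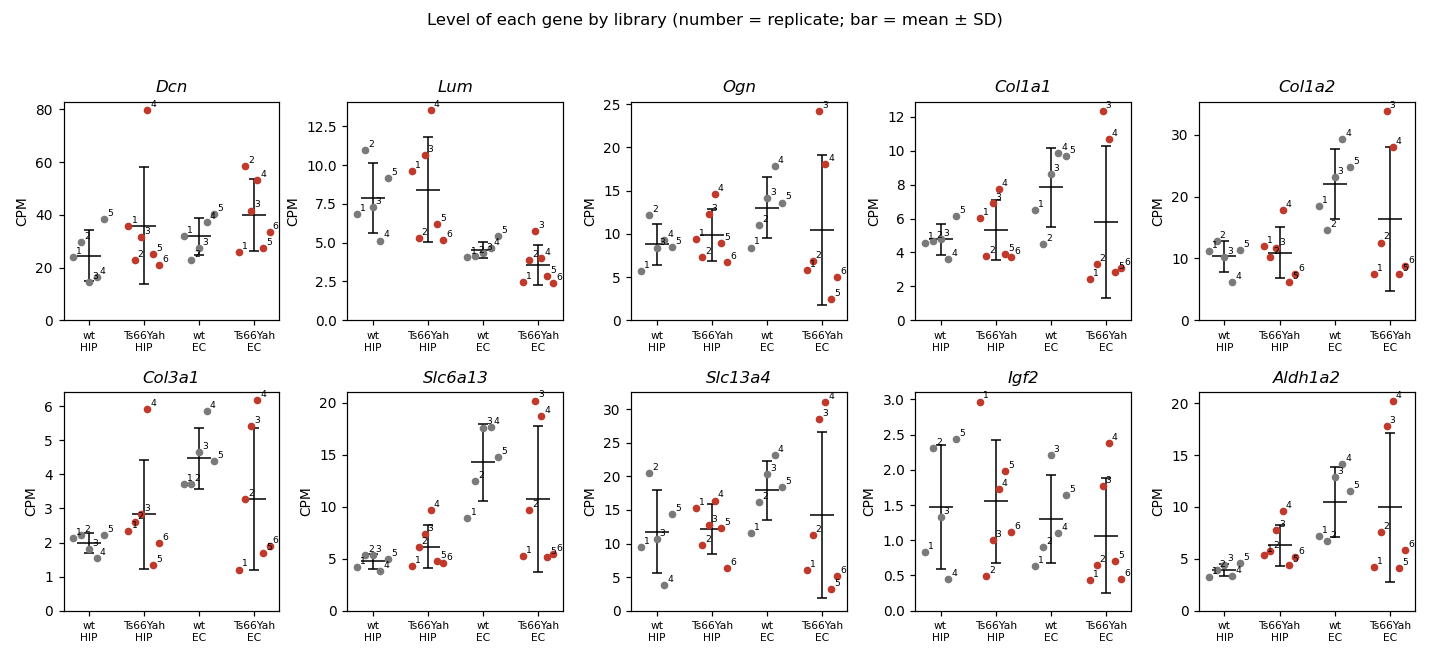
Level of each of the 10 genes in CPM (y axis, linear, from 0) in the 22 libraries, by group on the x axis. Grey points are wt and red points Ts66Yah libraries, numbers are replicates, and the bars give the mean ± SD. In EC, Ts66Yah replicates 3 and 4 are the 2 highest Ts66Yah libraries for 9 of the 10 genes, all but Dcn.

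Over the 10 genes, the genotype comparison gave 0 calls in HIP, where 0.591% of the 18452 genes tested were called, and 0 calls in EC, where 0.283% of 17658 were called (edgeR). At an unadjusted p under 0.05 there was 1 gene in HIP, Aldh1a2, and none in EC, against 11.9% and 6.25% of all genes tested. DESeq2 called 1 of the 10 in HIP, beside 2.05% of all genes it tested, and 0 in EC. The direction of the estimates differed between the regions: in HIP all 10 were positive, from 0.04 to 0.69 with a median of 0.17, and in EC 9 of 10 were negative, with a median of -0.33 (log2). The median over all genes tested was 0.00 in both regions, to 2 decimals. The HIP direction rested partly on single libraries: without Ts66Yah replicate 4 the median of the 10 was 0.03 and Lum, Col1a2 and Slc13a4 turned negative, and without wt replicate 4 these 3 and Igf2 did. It rested on the model too: with the span of the animal numbers as a block and 1 animal left out, the median was 0.025 and the same 4 genes, Lum, Col1a2, Slc13a4 and Igf2, had negative estimates. In EC the median lay between -0.64 (without Ts66Yah replicate 4) and -0.21 (without Ts66Yah replicate 6) when 1 library was left out. That the directions differ was known when the genes were chosen, and HIP and EC share their animals. The 95% intervals were wide and reached 1.29 at the upper end in HIP for Dcn and -1.39 at the lower end in EC for Slc13a4.

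**Figure D2:**
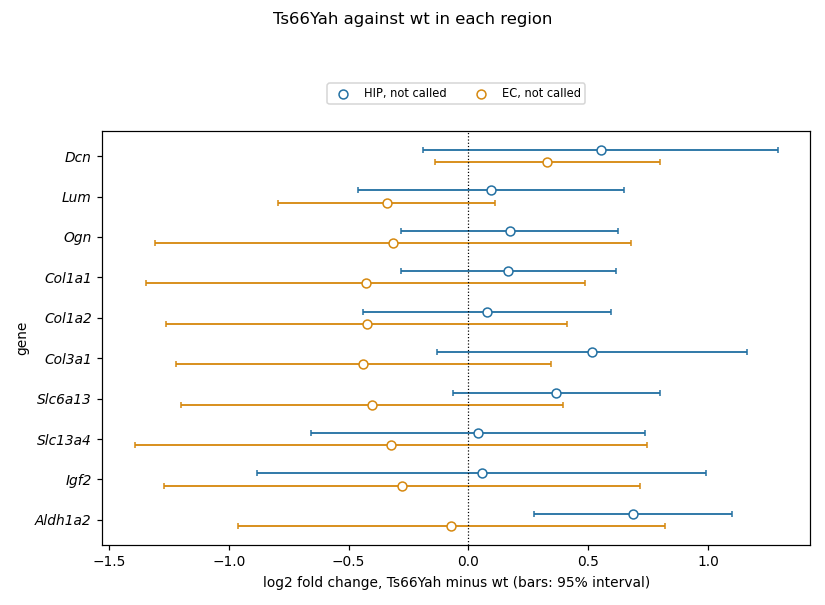
Log2 fold change, Ts66Yah minus wt, of each gene (x axis) in HIP (blue) and EC (orange), with 95% intervals from edgeR as bars. Open circles are not called at an adjusted p under 0.05. All 10 HIP estimates lie right of 0 and 9 of 10 EC estimates left of it, and the interval of Aldh1a2 in HIP, 0.27 to 1.10, is the only one that leaves out 0.

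The difference between the regions was tested directly as the genotype effect in EC minus that in HIP. No gene of the 10 and no gene of all 19074 tested passed the adjusted threshold (0% called, edgeR), and 0 of the 10 had an unadjusted p under 0.05, against 2.03% of all genes. DESeq2 also called 0 of the 10. All 10 estimates were negative, from -0.22 for Dcn to -0.95 for Col3a1, with a median of -0.49 on the log2 scale, which ran from -0.84 without Ts66Yah animal 3 to -0.33 without wt animal 4. Since each animal gave both regions, the animal can enter the fit as a block, which narrowed the errors: the estimate of Col3a1 became -1.01 ± 0.29, that of Aldh1a2 -0.92 ± 0.28 and that of Slc6a13 -0.90 ± 0.24. In that fit 5 of the 10 had an unadjusted p under 0.05, namely Slc6a13 (p 0.00211), Col3a1 (p 0.00297), Aldh1a2 (p 0.0051), Col1a1 (p 0.0329) and Ogn (p 0.0475) in edgeR, against 3.85% of all genes. Still 0 of 20066 genes passed the adjusted threshold, and the adjusted p of all 10 was 1. The genes were picked with this difference in direction in view, and these unadjusted values are given as a description.

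In Ts66Yah animals only Lum was called between the regions, 1 of the 10 genes against 54% of the 18043 genes tested (edgeR, adjusted p under 0.05). With the animal as a block there were 2 of 10, Lum (log2 -1.22 ± 0.17, adjusted p 0.000133) and Slc6a13, against 57.5% of all genes. A common fit of all 22 libraries also called these 2, against 53% of all genes. In wt the same block gave 7 of 10, against 52.1%. The median EC minus HIP difference of the 10 genes was 0.18 in Ts66Yah, against 0.66 in wt (log2), and it was 0.01 over all genes tested in each genotype. With the animal as a block the median was 0.025 in Ts66Yah, with 5 positive and 5 negative estimates where the fit without the block had 8 and 2, and 0.69 in wt. Without Ts66Yah animal 3 the median in Ts66Yah was -0.03. The difference between these region effects is the one tested in the preceding paragraph and was called for no gene.

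**Figure D3:**
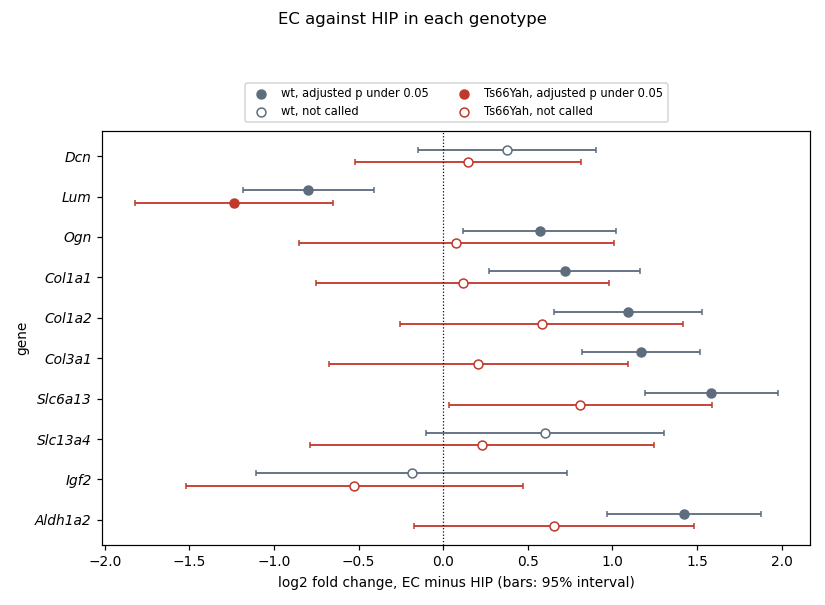
Log2 fold change, EC minus HIP, of each gene (x axis) in wt (grey) and Ts66Yah (red), with 95% intervals from edgeR as bars. Filled circles have an adjusted p under 0.05 and open circles do not. In wt 7 genes are filled, and in Ts66Yah only Lum is, at -1.24.

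The libraries of Ts66Yah EC varied more than those of wt EC in these genes. The ratio of the SD of log2 CPM in Ts66Yah to that in wt was at least 2 for 8 of the 10 genes in EC, against 10.2% of the 19074 genes tested, and for 2 of the 10 in HIP, against 9.44%. The median ratio of the 10 genes was 2.36 in EC, where that over all genes was 0.97, and 1.35 in HIP. The highest ratio in EC was that of Slc13a4 (3.49), followed by Col3a1 (3.45), Lum (2.99) and Ogn (2.98), and the lowest were those of Igf2 (1.45) and Dcn (1.49). No test of the spread was made, since the pattern was seen in the values.

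The spread in Ts66Yah EC came from the same libraries for most genes. Replicates 3 and 4 were the 2 highest of the 6 for 9 of the 10 genes, and the sum over the 10 genes was 192 and 193 CPM in them, against 60.9, 118, 57.9 and 71.3 CPM in replicates 1, 2, 5 and 6. In wt EC the same sum was 101, 97.0, 135, 161 and 144 CPM. Replicates 3 and 4 therefore lay above and 1, 5 and 6 below all wt EC libraries in this sum, with replicate 2 inside their range. Of the 118 CPM in replicate 2, however, Dcn alone gave 58.6 CPM. For Lum, Ogn, Col1a1, Col1a2, Col3a1 and Slc13a4, replicate 2 too lay below all wt EC libraries. For Slc13a4, replicates 3 and 4 reached at least 28.5 CPM and the other 4 at most 11.3 CPM. For Dcn the order was another one, with replicate 2 the highest at 58.6 CPM. In HIP the highest Ts66Yah library was replicate 4 for 9 of the 10 genes, with a sum of 177 CPM against 63.3 to 105 CPM in the other 5. The 10 genes share their libraries, so that these counts are not independent of one another.

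**Figure D4:**
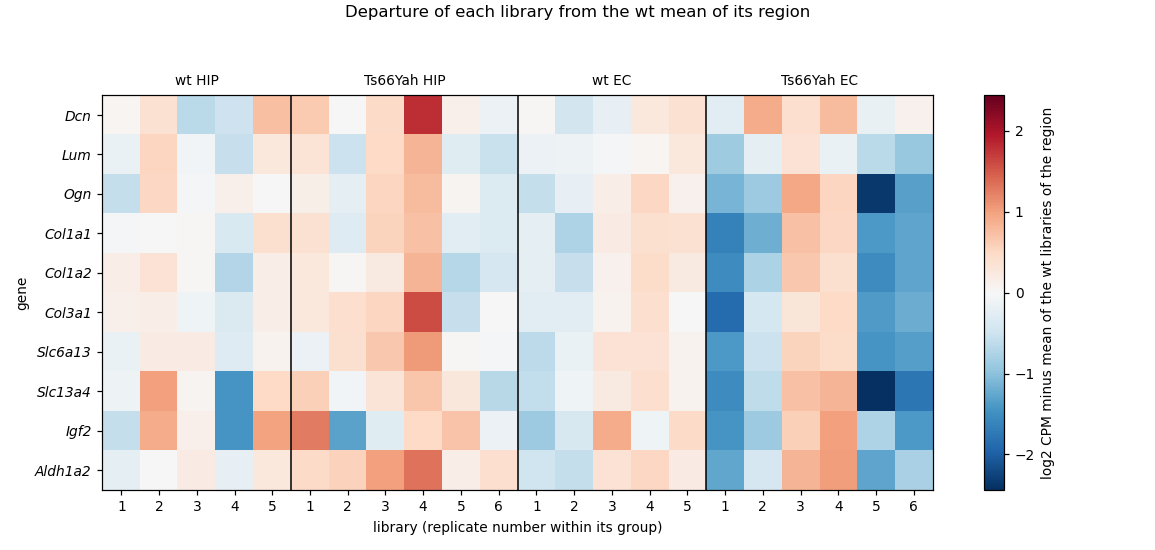
Departure of each library (columns, by group and replicate) from the mean of the wt libraries of its region, for each of the 10 genes (rows), as log2 CPM; red is above and blue below the wt mean. In EC, Ts66Yah replicates 1, 2, 5 and 6 are blue in nearly all genes, with Dcn red in replicate 2. Replicate 3 is red in all genes there and replicate 4 in all but Lum. In HIP the darkest red cells are in Ts66Yah replicate 4.

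Other genes moved with this split. The summed level of the other 30 leptomeningeal and fibroblast genes was 518 and 481 CPM in Ts66Yah EC replicates 3 and 4, and 240 to 303 CPM in the other 4. The 8 markers of border macrophages, the macrophages of the meninges and perivascular spaces, summed to 24.0 and 19.8 CPM in replicates 3 and 4 and to 8.57 to 11.7 CPM in the other 4. In wt EC that sum was 12.9 to 24.5 CPM, in wt HIP 4.8 to 7.75 CPM and in Ts66Yah HIP 5.73 to 12.2 CPM. The defining macrophage marker Mrc1 was at 6.20 ± 1.38 CPM (SD, n = 5) in wt EC and 5.01 ± 2.82 CPM (n = 6) in Ts66Yah EC, and no library was at 0. The sum of the 10 endothelial markers, by comparison, covered 333 to 473 CPM in Ts66Yah EC and 369 to 426 CPM in wt EC. Fibril-associated and network collagens summed to 139 and 144 CPM in replicates 3 and 4 and to 91.0 to 107 CPM in the other 4. Other small leucine-rich proteoglycans summed to 106 and 94.1 CPM, against 42.3 to 58.1 CPM. Collagen processing genes summed highest in replicate 5, at 546 CPM. Markers of vessel wall cells summed to 264 CPM in replicates 3 and 4 and to 275 CPM in replicate 5. In 1, 2 and 6 they summed to 198 to 213 CPM. The part of any of these cells in the results was not tested.

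An animal's HIP and EC libraries could be set side by side, because each animal gave both. After the group means were removed, the log2 CPM of HIP and EC of the same 11 animals had a Pearson r of 0.84 for Aldh1a2 (Spearman rho 0.72), 0.81 for Slc6a13 (rho 0.69), 0.65 for Col3a1, 0.62 for Ogn and 0.62 for Col1a1. Without the 2 animals farthest from the median HIP level of the gene, r was 0.62 for Aldh1a2, 0.70 for Slc6a13 and 0.25 for Col3a1. With all 11 animals it was 0.12 for Slc13a4 and 0.07 for Igf2, and the median over all genes tested was 0.29. These are descriptions over 11 pairs that include the Ts66Yah animals 3 and 4, which were high in EC.

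In HIP, the levels of Slc13a4 and Igf2 varied with that of a choroid plexus transcript. The choroid transcript Ttr, which encodes transthyretin, was at 1068, 3107, 1364, 80.2 and 2305 CPM in wt HIP replicates 1 to 5. It ranged from 713 to 2665 CPM in Ts66Yah HIP, and in EC it was between 2.29 and 35.2 CPM in all 11 libraries. The wt HIP library with the lowest Ttr, replicate 4, also had the lowest Slc13a4 (3.78 CPM) and Igf2 (0.453 CPM) of the 11 HIP libraries. That was not particular to Slc13a4 and Igf2, since Lum, Col1a1, Col1a2 and Slc6a13 were lowest there too. Among the wt HIP libraries replicate 4 was the lowest for 7 of the 10 genes. Across the 11 HIP libraries, with group means removed, Pearson's r with Ttr was 0.90 for Slc13a4 (rho 0.75) and 0.82 for Igf2 (rho 0.83). Without the 2 libraries farthest from the median of Ttr, r was 0.69 and 0.82. For the other 8 genes r lay between 0.11 for Col3a1 and 0.57 for Lum, and the median over all genes tested was -0.02. The sum of the 12 choroid markers was 370 to 5597 CPM in wt HIP and 1313 to 4423 CPM in Ts66Yah HIP. In EC it was 181 to 307 CPM, and since Ttr was at most 35.2 CPM there, most of that sum came from other markers of the list. All 12 were lower in EC than in HIP in both genotypes (edgeR), and the part of this difference in the region comparison of Slc13a4 and Igf2 was not tested.

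**Figure D5:**
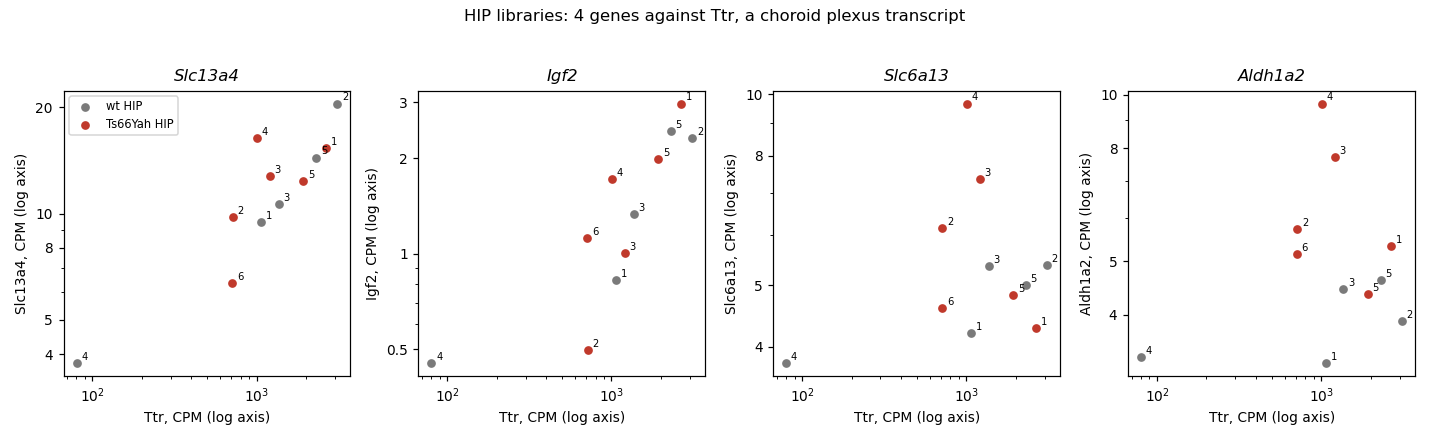
Slc13a4, Igf2, Slc6a13 and Aldh1a2 (y axes, CPM, log scale) against Ttr (x axes, CPM, log scale) in the 11 HIP libraries; grey is wt, red is Ts66Yah and numbers are replicates. Slc13a4 and Igf2 rise with Ttr, and wt replicate 4, at 80.2 CPM of Ttr, lies at the lower left, whereas the highest Slc6a13 and Aldh1a2 values belong to Ts66Yah replicate 4 at an intermediate Ttr.

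The other genes of the same pathways gave few genotype calls. Of the 30 other leptomeningeal and fibroblast genes, 29 were tested in HIP and none was called, with 25 positive estimates and a median of 0.26 (log2). In EC all 30 were tested and none was called, with 26 negative estimates and a median of -0.21. The directions in each region were thus those of the 10 genes, in the same libraries. Negative estimates in EC were not particular to these lists. The estimate was negative for 15 of 18 fibril-associated and network collagens (median -0.24). So it was for 9 of 10 mural, or vessel wall, cell markers (median -0.23) and 8 of 10 endothelial markers (median -0.05). In HIP 7 of 10 mural markers were negative too, and 9 of 10 endothelial markers positive. Not all lists did so: all 4 ependymal markers and 6 of 11 IGF axis genes tested were positive in EC. Of 18 fibril-associated and network collagens tested, Col4a1, a chain of the basement membrane collagen IV, was higher in Ts66Yah HIP (log2 0.45 ± 0.08, edgeR adjusted p 0.0225) and none was called in EC. Col4a1 measured 36.2 ± 4.86 CPM (n = 5) in wt HIP and 49.4 ± 4.02 CPM (n = 6) in Ts66Yah HIP, and the call was lost without wt replicate 3 or 5 or Ts66Yah replicate 6. No gene was called with genotype in either region among the 20 enzymes and chaperones of collagen processing or the other small leucine-rich proteoglycans. The same held for the IGF axis, the retinoic acid pathway and the other transporters, a list for GABA, taurine, sulfate and other solutes. The border macrophage markers had a median of 0.32 in HIP, over 6 tested, and of -0.47 in EC, over 8 tested, with no call.

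Between the regions of wt, 22 of the 30 other leptomeningeal genes were called, 19 higher and 3 lower in EC, with a median of 0.69, where 47.7% of all genes tested were called. Cdh1, the epithelial cadherin (log2 2.28 ± 0.34), and Fmod, the proteoglycan fibromodulin (log2 2.25 ± 0.17), were the largest (edgeR adjusted p 0.000121 and 4.25e-07). All 8 border macrophage markers were higher in wt EC, with a median of 1.45, led by F13a1 (log2 1.84) and Pf4 (log2 1.57). Among other cells of the tissue, 6 of 10 endothelial and 4 of 5 erythroid markers were higher in wt EC, with medians of 0.33 and 1.38, and 5 of 5 ependymal markers were lower, with a median of -2.10 (log2). The calls in the collagen, collagen processing, retinoic acid and transporter lists were about as frequent as over all genes, and those in the IGF axis less so, so that these counts are given as a description. Of the fibril-associated and network collagens, 8 of 18 were lower and 1 higher in EC, with Col5a3 at -2.41 and Col9a3 at -2.22. The collagen processing genes were lower in 8 and higher in 1 of 20, led by Pcolce2 (log2 -2.09) and P3h3 (log2 -1.35). In the IGF axis, Igfbp6, an IGF-binding protein, was higher in wt EC (log2 2.08) and Igfbp4 lower (log2 -0.96), while 8 of 11 genes tested were not called. In the retinoic acid pathway, 5 genes were higher and 4 lower of 16, and the largest were the nuclear receptor gene Rxrg (log2 2.19) and Crabp2 (log2 2.04), which encodes a retinoic acid binding protein. Of the other transporters 5 of 10 were higher. The largest differences in this list were those of Slc13a5 (log2 1.24) and Slc6a20a (log2 0.98). They encode transporters of citrate and of proline, not of GABA, taurine or sulfate.

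In Ts66Yah, 14 of the 30 other leptomeningeal genes were called between the regions, 10 higher and 4 lower in EC, with a median of 0.39. Of all genes tested 54% were called in this comparison, so that this count and that of the macrophage markers below were no larger than the background. Foxc2, a forkhead factor gene, was higher (log2 1.57, edgeR adjusted p 0.0149) and Twist1 lower (log2 -1.55, adjusted p 0.00304). Of the 7 border macrophage markers tested 3 were higher, led by Pf4 (log2 1.19) and F13a1 (log2 0.90). Without Ts66Yah animal 3 the calls of Foxc2 and F13a1 were lost (adjusted p 0.0959 and 0.077). Pcolce2 and P3h3 were lower in EC in Ts66Yah too, at -1.83 and -1.65 (log2).

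The genes most like the 10 were sought by the correlation of each tested gene with the mean of the 10, in log2 CPM over the 22 libraries after the 4 group means were removed. The 5 highest were Colec12, a scavenger receptor gene (r 0.97), Slc6a20a (r 0.96), the connexin gene Gjb2 (r 0.94), Cped1 (r 0.93) and Fgl2 (r 0.92), against a median of 0.00 over all 19064 genes. Without the 6 Ts66Yah EC libraries, which hold most of the spread, their r over 16 libraries was 0.94, 0.92, 0.85, 0.93 and 0.86, and they ranked first, 4, 11, 2 and 7. Among the 10 themselves, r with the mean of the other 9 was highest for Col1a2 (0.95), Col1a1 (0.92) and Aldh1a2 (0.92) and lowest for Dcn (0.66) and Igf2 (0.68). Without the Ts66Yah EC libraries the order changed: Lum was highest (0.89), Col1a2 and Col1a1 followed (0.86 each), Dcn and Aldh1a2 were level (0.78 each) and Igf2 was lowest (0.53). Colec12 stood at 8.53 ± 2.20 CPM (n = 5) in wt HIP, 17.5 ± 3.96 CPM (n = 5) in wt EC, 9.65 ± 3.08 CPM (n = 6) in Ts66Yah HIP and 14.1 ± 7.93 CPM (n = 6) in Ts66Yah EC. The correlations share libraries and depth and are descriptions.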

How the data were processed

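RNA was extracted from the HIP and EC of 5 wt and 6 Ts66Yah male mice, and 22 libraries were sequenced as single-end reads. The labels describe a stranded kit with poly(A) selection, whereas the methods of the study name both a kit with ribosomal depletion and poly(A) RNA, and the files do not settle which was used. Per the methods, reads were aligned with Hisat2 to GRCm38 and counted per Ensembl gene with HTSeq-count. How reads with several matches were treated, and the strand setting, are not given in the sources used here. The submitters' processing notes name bcl2fastq 2.17.1.14 and DESeq2. The deposited count table holds, as the authors made it, unnormalized read counts for every gene, whole numbers with no blank gene and 0 columns that could not be assigned. The authors also deposited DESeq2 and FCROS tables of fold changes and p-values for their own comparisons, which were not used.

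Groups, replicates and animal numbers came from the labels. Of 55385 gene identifiers, 55144 matched GENCODE M21 (GRCm38). Counts were tested with edgeR 4.0.16 in R 4.3.3 (TMM, filterByExpr, quasi-likelihood test), and p-values were adjusted after Benjamini and Hochberg over all tested genes, threshold 0.05, within each region for genotype, within each genotype for region and over 22 libraries for the difference. SE and 95% intervals come from the same fit. The code was tested on simulated data. CPM and RPKM were computed with TMM factors and the summed exon length, and log2 CPM with a prior count of 2. DESeq2 1.42.0, RLE factors, other filters on low counts (none, or 1 CPM in 5 libraries), a common fit, blocks and each library or animal left out were alternatives. Totals of 25.9 M to 50.1 M reads set the precision; counting error at the lowest counts adds to the spread between animals. RefSeq promoter windows were found for 7 of the 10 genes and not for 3.

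Same-numbered HIP and EC libraries come from the same animal, and their deviations from group means correlated with r of 0.21 to 0.45, and each of the 11 HIP libraries was highest with its own EC library among those of its genotype, so that the animal was used as a block. All 10 genes were named in every comparison, and of each other list the 2 genes with the largest change among those called, the first 2 markers of each marker list for their level, and the 5 genes most like the 10. The genes and lists were chosen with earlier results of these data known.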

Additional observations from a re-analysis of the deposited data

Results flagged for a closer look

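Each gene's level in each group, the level of Ttr and the summed levels of 4 gene lists made 60 sets of 5 or 6 libraries, and 4 of them held a library set apart from the rest by more than Dixon's 95% critical value, where chance gives about 1 in 20. In 3 of the 4 sets that library was Ts66Yah HIP replicate 4, with 79.7 CPM of Dcn (next highest 35.6 CPM), 5.91 CPM of Col3a1 (next highest 2.83 CPM) and a sum over the 10 genes of 177 CPM (next highest 105 CPM). These 3 are not independent, since Dcn and Col3a1 enter the sum. The same animal's EC library was 1 of the 2 highest of its group for all 10 genes. The remaining set was the sum of the choroid plexus markers in wt EC, where replicate 2 stood at 307 CPM (next highest 239 CPM). In that library Ttr was at 35.2 CPM, and Folr1 and Slc4a5 averaged 0.223 and 0.108 CPM in wt EC. Most of the sum thus came from other markers of the list, and which cells gave them was not tested. The cause was not tested.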

How the results depend on the processing

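The count of the 10 genes called stayed at 0 for genotype in EC and for the difference between regions under each alternative run. In HIP it was 0 except with DESeq2, which called 1, Aldh1a2. Between the regions of wt it was 7, against 47.7% of all genes in the main fit. It was 5 in the common fit of all 22 libraries, where edgeR did not call Ogn and Col1a1 (adjusted p 0.261 and 0.125). When 1 animal was left out it was 5 to 8. The share over all genes was not worked out for the common fit in wt or the fits without 1 animal. Those counts are therefore a description only. In Ts66Yah the count was 1, and 2 in the common fit of all 22 libraries, against 54% and 53% of all genes. With the animal as a block, the pairing that HIP and EC of 1 animal give, it was also 2 in Ts66Yah, 7 in wt and 0 for the difference between regions. In that fit Ogn turned to -0.20, Col1a1 to -0.093 and Slc13a4 to -0.11 (log2, EC minus HIP, Ts66Yah), none called. The replicate number alone pairs no animals of different genotype (r of deviations -0.01 to 0.06 in HIP and 0.02 to 0.18 in EC, and 3 of 5 in EC but 0 of 5 in HIP highest with their own number); as a block it gave 0 calls in HIP and 0 in EC. When animals were blocked by the span of their numbers (1 animal outside both spans left out), the HIP genotype estimates of Lum (-0.047), Col1a2 (-0.014), Slc13a4 (-0.019) and Igf2 (-0.061) turned negative. The median of the 10 moved by over 1.5 times in that fit (HIP 0.025, EC -0.72), with the animal as a block (difference between regions -0.77, Ts66Yah regions 0.025) and with the replicate number as a block (HIP 0.29) (log2).

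With each library or animal left out, the HIP genotype estimate ran from -0.095 to 0.24 for Lum, from -0.12 to 0.20 for Col1a2, from -0.18 to 0.34 for Slc13a4 and from -0.23 to 0.30 for Igf2 (log2). In EC it ran from -0.69 to 0.015 for Igf2 and from -0.41 to 0.090 for Aldh1a2. The difference between regions ran from -0.46 to 0.082 for Dcn and from -0.72 to 0.12 for Igf2. EC minus HIP ran in wt from -0.51 to 0.14 for Igf2, and in Ts66Yah from -0.091 to 0.45 for Dcn, from -0.29 to 0.25 for Ogn, from -0.17 to 0.31 for Col1a1 and from -0.077 to 0.46 for Slc13a4. None of these estimates was called in any of those fits, and the causes of the changes were not tested. Limits are the group sizes of 5 and 6, the few reads of Igf2, and animal-to-animal spread above that of most genes.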
